A study of Arabidopsis thaliana with 6 samples.

Results

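The loci described here are the pseudogenes and transcribed pseudogenes of Arabidopsis thaliana, taken as every nuclear locus that the TAIR10.1 annotation gives one of these biotypes and that held at least 20 reads over the 2 input libraries. Of 4843 such loci, 4431 met the rule, among 37899 annotated nuclear loci in all. They comprised 3585 of 3917 pseudogenes and 846 of 926 transcribed pseudogenes. The study profiled H3K27me3, trimethylation of lysine 27 of histone H3, by ChIP-seq in 14-day-old whole seedlings of wild-type Col (wt) and of brm, the T-DNA null allele brm-1 in the Col background, which lacks the SWI/SNF ATPase BRAHMA. Both genotypes grew without treatment on MS agar, and each gave 2 H3K27me3 libraries and 1 input library of sonicated chromatin without antibody. Because whole seedlings were used, a locus marked in some cells and a locus marked weakly in all cells cannot be told apart.

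A pseudogene is a copy of a gene that has lost the ability to make the product of its parent, through truncation, frameshift or loss of regulatory sequence. In plants many transposon-derived open reading frames are annotated in the same way, and the copia-like retrotransposon TA3, a locus silenced in heterochromatin, carried the pseudogene biotype here. Polycomb repressive complex 2 deposits H3K27me3 mainly on developmentally repressed genes of the chromosome arms, whereas transposons around the centromeres are known for DNA methylation and H3K9 methylation. Pericentromeres were set from the annotation alone, as runs of 500 kb windows around the window of each chromosome with the lowest protein-coding cover. These runs were made of windows in which protein-coding genes covered under 60% of the chromosome's median. They spanned 12500001 to 17000000 on chromosome 1, 1500001 to 7000000 on chromosome 2, 10500001 to 16000000 on chromosome 3, 1500001 to 6000000 on chromosome 4 and 10000001 to 14500000 on chromosome 5.

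The biotypes differed in place and in annotation. Of the pseudogenes, 2873 lay in pericentromeres and 712 in arms, whereas 304 transcribed pseudogenes were pericentromeric and 542 lay in arms. All 846 transcribed pseudogenes had a description, but only 46 pseudogenes (1.28%) did. The median pseudogene spanned 2142 bp and the median transcribed pseudogene 862 bp. Another annotated gene overlapped 127 pseudogenes and 112 transcribed pseudogenes.

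The sequence decides what a 37-base read can show, because the authors kept perfectly and uniquely mapped reads only. A median of 86.5% of the 37-base words of a pseudogene were unique in the nuclear genome, against 99.8% in a transcribed pseudogene and 100% in a protein-coding gene. The 412 loci under 20 input reads had a median of 16.4% unique words and 579 bp, 99 of them had no input read, and 282 were pericentromeric. The rule separated 22 loci with 19 input reads from 21 loci with 20. The median log2 ratio of H3K27me3 to input in wt was -1.32 over the 114 loci with 15 to 19 input reads and -1.53 over the 112 with 20 to 24.

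Stretches of 5 loci described below are printed here, from TAIR10.1 and on the plus strand, which is also the strand of each locus. The first 3 are 300-base windows from the middle of loci with high H3K27me3: AT4G01525 (SADHU5-1), a non-coding Sadhu retrotransposon, at chr4:661105-661404, AT3G49765, without a description, at chr3:18460212-18460511, and AT1G63040, a transcribed pseudogene of the DREB A-4 group of AP2/ERF transcription factors, at chr1:23371551-23371850. Capitals mark GAGAGA or its reverse complement TCTCTC. Such a match was present in 27.9% of marked and 19.9% of unmarked pseudogene loci, and in 24.8% of all loci searched. These windows therefore do not stand for marked loci in general. Among protein-coding genes 24.2% of those marked and 25.03% of the others had a match.
AT4G01525: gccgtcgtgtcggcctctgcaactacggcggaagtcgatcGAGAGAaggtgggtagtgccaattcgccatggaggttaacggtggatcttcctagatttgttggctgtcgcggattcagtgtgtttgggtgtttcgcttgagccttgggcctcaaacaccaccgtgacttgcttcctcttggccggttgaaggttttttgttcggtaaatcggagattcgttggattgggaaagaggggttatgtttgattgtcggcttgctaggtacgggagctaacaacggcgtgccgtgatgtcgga
AT3G49765: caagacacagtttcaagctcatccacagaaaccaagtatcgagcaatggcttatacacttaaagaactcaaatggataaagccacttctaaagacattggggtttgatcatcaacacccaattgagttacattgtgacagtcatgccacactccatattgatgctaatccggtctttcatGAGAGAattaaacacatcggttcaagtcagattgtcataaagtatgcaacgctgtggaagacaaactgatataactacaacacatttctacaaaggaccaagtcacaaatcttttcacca
AT1G63040: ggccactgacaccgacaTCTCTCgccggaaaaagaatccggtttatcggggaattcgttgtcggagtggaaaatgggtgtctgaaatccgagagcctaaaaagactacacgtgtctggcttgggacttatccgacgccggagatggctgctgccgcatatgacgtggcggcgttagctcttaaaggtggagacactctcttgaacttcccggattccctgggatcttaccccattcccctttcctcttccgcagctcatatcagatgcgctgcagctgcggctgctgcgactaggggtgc
AT2G07080 at chr2:2938205-2938504 holds separate stretches of organelle-like DNA. Capitals mark bases in 37-base words that also occur in the mitochondrial or plastid genome.
AT2G07080: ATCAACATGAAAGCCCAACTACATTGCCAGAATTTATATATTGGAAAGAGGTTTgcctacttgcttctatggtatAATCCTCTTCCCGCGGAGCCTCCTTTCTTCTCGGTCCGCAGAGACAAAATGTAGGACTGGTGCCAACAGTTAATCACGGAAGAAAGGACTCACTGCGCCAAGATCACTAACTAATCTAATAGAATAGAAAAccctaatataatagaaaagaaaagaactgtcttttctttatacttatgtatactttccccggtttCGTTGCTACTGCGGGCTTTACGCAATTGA
AT1G43660 at chr1:16450353-16450652 was the single locus called between genotypes. Capitals mark the 188 bases that the reads counted there in the brm H3K27me3 libraries covered.
AT1G43660: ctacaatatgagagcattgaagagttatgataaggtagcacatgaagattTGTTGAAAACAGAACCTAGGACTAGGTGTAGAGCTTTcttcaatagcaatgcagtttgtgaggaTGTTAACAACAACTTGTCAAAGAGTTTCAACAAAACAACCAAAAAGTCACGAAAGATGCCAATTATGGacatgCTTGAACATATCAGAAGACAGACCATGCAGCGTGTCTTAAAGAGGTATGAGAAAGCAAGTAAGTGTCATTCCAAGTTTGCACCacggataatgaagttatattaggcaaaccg

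The H3K27me3 libraries held 8408612 to 9593473 nuclear reads and the inputs 5676681 (brm) and 6342835 (wt), but only 23.4% to 38.2% of the H3K27me3 reads had a position and strand of their own, against 68.9% and 80.03% of the input reads. Over the 4431 loci these shares were 23.5% to 38.1% and 66.0% and 76.9%, respectively. Reads from these loci made up 2.99% to 3.12% of each H3K27me3 library and 6.27% (wt) and 7.28% (brm) of the inputs. The values below are reads scaled to the nuclear total of their library (RPM), and the ratio is log2 of (H3K27me3 RPM + 0.5) over (input RPM + 0.5), so that a locus with few reads is pulled towards 0. Each genotype has 1 input, which both of its libraries share, so input error enters both in the same way.

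Pseudogenes carried little H3K27me3, and transcribed pseudogenes of the arms carried the most. The median log2 ratio of all pseudogenes was -2.38 in each wt library, and that of transcribed pseudogenes was -0.88 in wt replicate 1 and -0.99 in wt replicate 2. In brm the medians were -2.57 and -2.64 for pseudogenes and -0.91 and -1.01 for transcribed pseudogenes. The transcribed class lay above the other in every library, by 1.503 and 1.391 in wt and by 1.66 and 1.64 in brm, a mean of 1.55 ± 0.13 (SD, n = 4 libraries; exact sign-flip permutation test, two-sided, p = 0.13, the smallest that 4 libraries allow; 0.208 after Benjamini-Hochberg adjustment over 5 class comparisons). The libraries of a genotype share an input and loci are not replicates, so these values measure the spread between libraries only.

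Compartment gave a difference of similar size. Loci in pericentromeres had median ratios of -2.47 and -2.51 in wt and -2.66 and -2.72 in brm, and loci in arms had -1.03 and -1.08 in wt and -1.10 and -1.21 in brm. The pericentromeric median was lower in 4 of 4 libraries, with a mean difference of -1.49 ± 0.06 (SD, n = 4; exact sign-flip test, p = 0.13, adjusted 0.208). With a stricter pericentromere, under 40% of the median gene cover, it was -0.77.

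The biotypes also differed inside the arms. Arm pseudogenes had medians of -1.67 and -1.61 in wt and -1.76 in both brm libraries, whereas arm transcribed pseudogenes stood near the input level, at 0.05 and 0.08 in wt and 0.14 and 0.08 in brm. The mean difference was 1.79 ± 0.10 (SD, n = 4; exact sign-flip test, p = 0.13, adjusted 0.208). Among the 219 arm pseudogenes and 291 arm transcribed pseudogenes in which every 37-base word is unique, it was 1.14, with 1.06 and 0.95 in wt and 1.27 in both brm libraries. Transcribed pseudogenes in pericentromeres had medians of -1.88 and -2.22 in wt and -2.17 and -2.16 in brm, and pericentromeric pseudogenes had -2.51 and -2.52 in wt and -2.70 and -2.74 in brm.

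**Figure D1:**
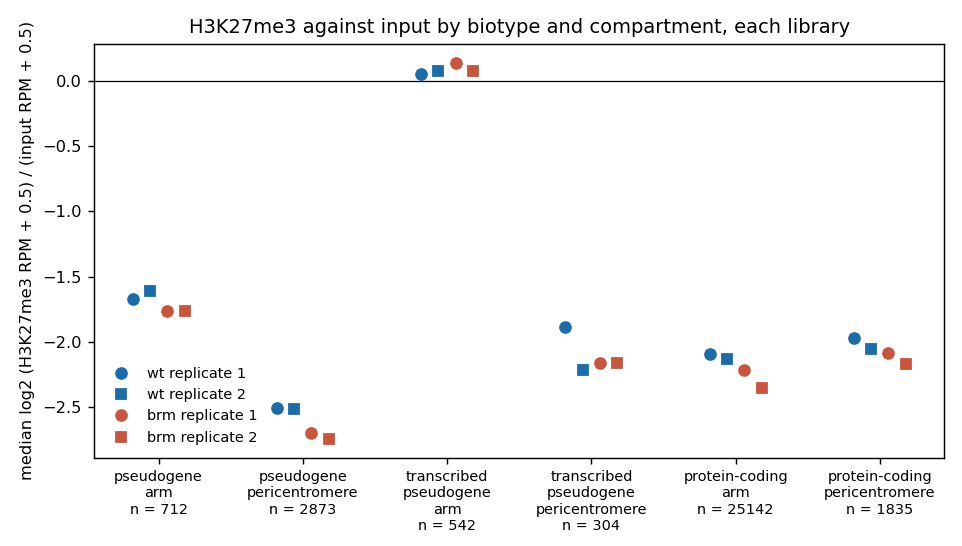
Median log2 ratio of H3K27me3 to input (y axis) in each of the 4 H3K27me3 libraries (points) for pseudogenes, transcribed pseudogenes and protein-coding genes, split into arms and pericentromeres (x axis, with the number of loci). Arm transcribed pseudogenes lie between 0.05 and 0.14, above the other 5 classes in every library.

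Protein-coding genes give the scale for these ratios. Their median was -2.11 ± 0.03 (SD, n = 2 libraries) in arms and -2.01 ± 0.06 in pericentromeres of wt. Loci without a base of H3K27me3 region in either genotype lay lower in the arms, at -2.61 ± 0.06 for 18437 protein-coding genes and -2.05 ± 0.004 for 561 pseudogenes in wt. The 2820 such pericentromeric pseudogenes had -2.54 ± 0.01, next to -2.43 ± 0.04 for 1434 pericentromeric protein-coding genes without a region. Transcribed pseudogenes without a region had -1.63 ± 0.07 in arms (295 loci) and -2.25 ± 0.16 in pericentromeres (262 loci) of wt. The classes thus also differed where no region was called. The median pericentromeric pseudogene held 11 to 14 reads in an H3K27me3 library and 61 (wt) or 66 (brm) in the inputs, so single-locus ratios at this level rest on few reads.

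Marking was read from regions rebuilt after the SICER scheme in each library and kept where both replicates of a genotype agreed, which gave 4951 regions (18.5 Mb) in wt and 5351 (20.1 Mb) in brm. A locus was called marked when such regions covered at least 50% of its span. In wt 379 of the 4431 loci (8.55%) were marked, against 19.2% of all 35506 loci with 20 or more input reads. In brm 390 (8.80%) were marked, against 20.2%. Both genotypes marked 354 loci, wt alone 25 and brm alone 36. Of 26977 protein-coding genes, 5342 were marked in both genotypes, 245 in wt alone and 522 in brm alone. A larger count in brm alone was thus not particular to pseudogene loci.

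The marked loci were mostly transcribed pseudogenes of the arms. In each genotype 209 of 542 of these were marked (38.6%), compared with 21.0% of arm protein-coding genes in wt. Of pericentromeric transcribed pseudogenes 34 of 304 were marked in each genotype (11.2%). Of arm pseudogenes 108 of 712 were marked in wt (15.2%) and 112 in brm (15.7%). Of the 2873 pericentromeric pseudogenes 28 were marked in wt (0.97%) and 35 in brm (1.22%), whereas 16.3% of pericentromeric protein-coding genes were marked in wt.

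Marking of pseudogenes moved with sequence uniqueness. In wt 2 of 186 arm pseudogenes with under 50% unique words were marked (1.08%), 10 of 125 with 50% to 90% (8%), 26 of 182 with 90% to under 100% (14.3%) and 70 of 219 with all words unique (31.96%). Among arm transcribed pseudogenes with all words unique, 116 of 291 were marked (39.9%). In pericentromeres the shares with all words unique were 4.88% of 389 pseudogenes and 11.5% of 113 transcribed pseudogenes. The median log2 ratio, which takes the loss of reads in the input into account, was -2.07, -1.75, -1.82 and -0.88 in these 4 bins of arm pseudogenes, so that only the fully unique bin stood apart. In pericentromeric pseudogenes it was -2.28, -2.57, -2.63 and -2.43, with the least unique bin the highest. What part repeated sequence itself has in this was not tested.

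**Figure D2:**
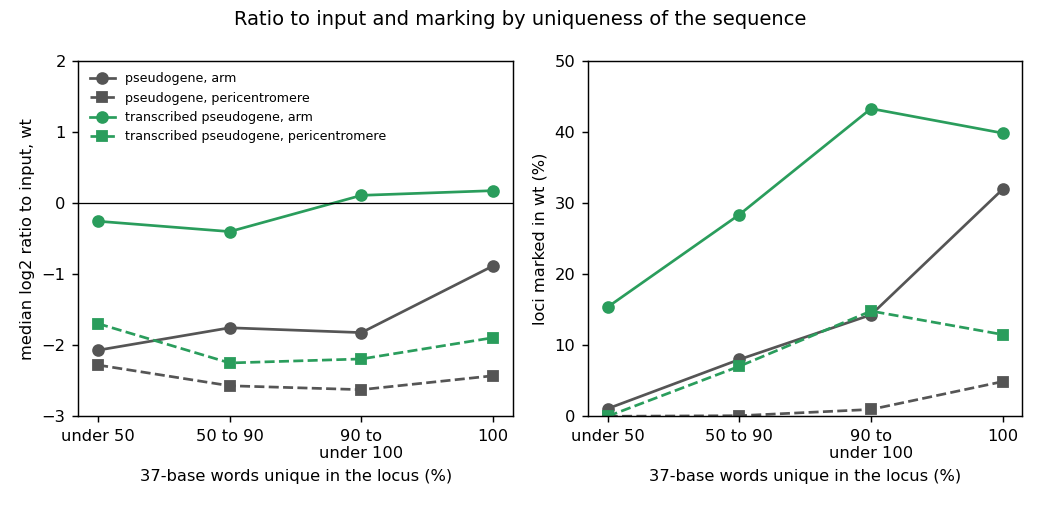
Median log2 ratio to input in wt (left) and percent of loci marked in wt (right) against the share of 37-base words of a locus that are unique (x axis, 4 bins), with lines for pseudogenes and transcribed pseudogenes in arms and pericentromeres. Marked arm pseudogenes go from 1.08% in the least unique bin to 31.96% in the fully unique bin.

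The share of marked loci changed over a short distance at the pericentromere border. More than 1 Mb inside the border 5 of 2030 pseudogenes were marked in wt (0.25%), and in the outermost 1 Mb inside it 23 of 843 were (2.73%). In the first 1 Mb of arm 36 of 253 were marked (14.2%). Transcribed pseudogenes went from 7.14% to 17.2% and 37.4% over these 3 bins, and reached 44.7% (72 of 161) at 4 to 8 Mb from the border. At more than 8 Mb, towards the chromosome ends, the shares were 6.90% of 58 pseudogenes and 26.7% of 90 transcribed pseudogenes. Protein-coding genes went from 8.31% to 20.9% and 23.7% over the same first 3 bins, and had 18.1% at more than 8 Mb. Inside the border transcribed pseudogenes thus lay below protein-coding genes.

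**Figure D3:**
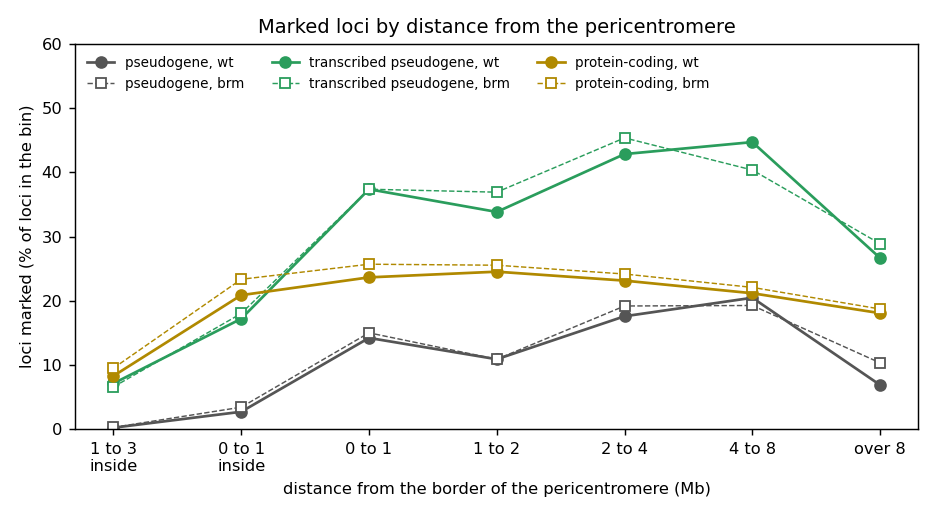
Percent of loci marked (y axis) in bins of distance from the pericentromere border in Mb (x axis) for pseudogenes, transcribed pseudogenes and protein-coding genes. Filled points and solid lines are wt, open points and dashed lines brm. Transcribed pseudogenes lie above protein-coding genes in every arm bin and below them inside the border.

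A count model over all 6 libraries gave a similar order. Of 4412 loci tested, 368 were enriched over input at least 2-fold (edgeR quasi-likelihood test, adjusted p under 0.05), or 8.34%, against 19% of all 36023 loci tested. A further 3174 (71.9%) were at least 2-fold below input, against 61.5% of all loci tested. Enriched loci comprised 228 of 843 transcribed pseudogenes (27.0%) and 140 of 3569 pseudogenes (3.92%). These counts hang on the scaling. With TMM, which moved the median of all genes by 1.94 on the log2 scale, 652 of the 4412 loci were enriched and 439 depleted. Over all loci 29.6% were enriched and 16.1% depleted with TMM. The enriched share of the pseudogene loci was below that of all loci under either scaling. Their depleted share was above that of all loci with total reads and below it with TMM. A scaling factor moves the medians of all classes in a library alike, apart from the pseudocount.

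The described loci were grouped by the family named in the annotation, and their marked shares stand beside the 28.7% of all transcribed pseudogenes and the 38.6% of those in arms. F-box pseudogenes, whose parents encode substrate receptors of ubiquitin ligases, had the highest median ratio of the larger families, 0.59 in wt over 73 loci, with a range of -3.95 to 3.41. Of these 73, 30 passed the enrichment test and 21 were depleted, and 29 were marked in wt (39.7%) and 28 in brm. They lay in arms in 54 of 73 cases. Kinase pseudogenes had a wt median of -0.43, with 14 of 41 marked in wt (34.1%) and 14 in brm, 13 of them shared, and 34 lay in arms. Pseudogenes of cysteine-rich or defensin peptides, a class of small secreted proteins, had -0.17, with 13 of 39 marked in wt (33.3%) and 15 in brm, and 35 lay in arms. No test compared families.

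Smaller families were mixed. Of 5 glycosyltransferase pseudogenes, 4 passed the enrichment test and 3 were marked in wt, and their median was 1.73. For cytochrome P450 3 of 14 were marked in each genotype, for disease resistance 1 of 13 in wt and 3 in brm, for ribosomal proteins 5 of 17 in each, and for transcription factors 7 of 28 in wt and 6 in brm. None of the 6 MADS or AGAMOUS-like pseudogenes was marked, with wt ratios of -2.82 to -1.39. The 590 loci with another description had a median of -1.35 with 158 marked in wt, and the 3539 without a description had -2.41 with 133 marked. The keywords for tRNA and rRNA matched only AT3G43251, a pseudogene of a protein-coding gene for a tRNA/rRNA methyltransferase, which was marked in both genotypes.

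Loci described as transposable elements had a wt median of -1.94, 12 of 65 were marked in each genotype, 11 were enriched and 40 depleted. The 16 Sadhu members, short non-coding retrotransposons, showed how unequal such a family can be. SADHU5-1 and SADHU10-1 (AT3G58865) were covered by regions over their whole span in both genotypes, with wt ratios of 4.54 and 2.95 and brm ratios of 3.54 and 2.97. The other 14 lay below input in wt, between -3.16 and -0.70, and none was marked. In SADHU5-1 37.2% of the words are unique, and in SADHU10-1 all are.

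The 5 pseudogenes with the highest wt ratio, ranked by the lower wt library, were SADHU5-1, AT3G49765, AT3G17200, AT1G21300 and AT2G21000. SADHU5-1 held 42.9 and 53.7 RPM in the wt libraries, 43.7 and 40.6 RPM in the brm libraries, and 1.58 (wt) and 3.17 RPM (brm) in the inputs, from 10 and 18 input reads. AT3G49765 held 51.3 and 53.4 RPM in wt, 42.6 and 54.7 RPM in brm, and 2.84 and 5.28 RPM in the inputs. The H3K27me3 values of the genotypes overlapped at both loci, and the brm input was the higher in each. AT3G17200, at chr3:5869723-5870852, had 94.4 and 102.2 RPM in wt, 91.5 and 93.8 RPM in brm, and 5.83 and 13.9 RPM in the inputs.

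The 5 transcribed pseudogenes ranked in the same way were AT3G61721, derived from a RING-H2 finger protein and overlapping another gene, AT3G12450 from a 3'-5' exonuclease-like protein, AT1G63920 from a reverse transcriptase-related protein, AT1G63040 from an AP2/ERF factor, and AT3G44757 from a transmembrane protein. AT1G63040 held 67.8 and 109.9 RPM in wt, 79.6 and 99.7 RPM in brm, and 5.68 and 8.46 RPM in the inputs, so its brm values lay between its wt values. AT3G12450 held 81.9 and 87.2 RPM in wt, 73.0 and 83.1 RPM in brm, and 6.62 and 8.63 RPM in the inputs. Between genotypes these 10 loci had fitted log2 changes of -0.30 to 0.01, and none passed the test (adjusted p 0.73 to 0.996, edgeR quasi-likelihood test). Because the ranking used wt, a lower ratio in brm is favoured by the choice.

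Pericentromeric loci could also be fully covered. The 5 with the highest wt ratio were AT2G15600, AT1G34330, a peroxidase pseudogene, AT3G30727, AT3G43830 and AT2G04820, all with 100% unique words and regions over their whole span in both genotypes. AT3G30727 held 160.3 and 134.3 RPM in wt, 153.2 and 127.7 RPM in brm, and 15.1 and 18.3 RPM in the inputs. AT1G34330 lay at chr1:12528035-12529461, near the border of its pericentromere, and held 78.1 and 70.5 RPM in wt and 81.1 and 84.0 RPM in brm, with 7.73 and 16.9 RPM in the inputs. The brm libraries were above the wt libraries here, but its log2 change of 0.15 ± 0.19 (SE) did not pass the test (edgeR adjusted p = 0.92). TA3 (AT1G37110) stood at the other end, with 1.63 and 2.98 RPM in wt, 5.32 and 1.90 RPM in brm, and 29.8 and 34.0 RPM in the inputs, and no region over any part of it.

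**Figure D4:**
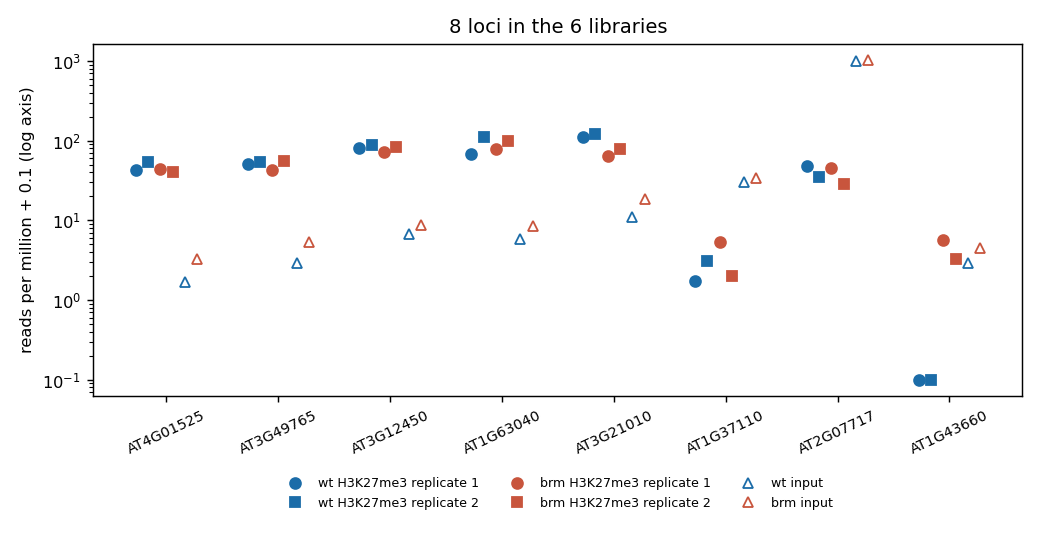
Scaled reads (RPM) + 0.1 on a log axis at 8 loci (x axis) in the 4 H3K27me3 libraries (filled circles for replicate 1, filled squares for replicate 2) and 2 inputs (open triangles), wt in blue and brm in red. The first 5 loci lie above their inputs in every H3K27me3 library, TA3 (AT1G37110) and AT2G07717 lie below, and AT1G43660 has no wt H3K27me3 read.

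Marked pseudogenes often shared a region with protein-coding genes. In wt the 379 marked loci fell in 334 regions with a median length of 4400 bp, against 2800 bp for all 4951 regions. A region that marks a locus has to cover much of its span, so this choice favours long regions. Of the loci, 249 (65.7%) lay in a region with at least 1 marked protein-coding gene, a share without a comparison here. A further 103 regions held 1 marked pseudogene and no marked protein-coding gene, and their median length was 2000 bp. Regions with at least 3 marked loci numbered 9. The largest group was a run of 5 pseudogenes on the plus strand, AT3G20990, AT3G21010, AT3G21020, AT3G21030 and AT3G21040, in the region chr3:7354001-7374800 with 4 marked protein-coding genes.

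No locus of this run passed the test between genotypes. AT3G21010 held 111.6 and 122.1 RPM in wt and 65.0 and 77.9 RPM in brm, with 11.04 and 18.5 RPM in the inputs. Its H3K27me3 values did not overlap between genotypes, and the fitted log2 change was -0.71 ± 0.18 (SE, edgeR adjusted p = 0.18). AT3G21030 held 112.2 and 89.9 RPM in wt and 62.0 and 64.7 RPM in brm (-0.67 ± 0.19, edgeR adjusted p = 0.28). AT3G20990, the first of the run, held 101.4 and 119.9 RPM in wt and 110.2 and 125.0 RPM in brm, so its values overlapped. All 5 kept regions over their whole span in brm. This run was chosen after its values were seen.

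Annotated parents allowed pseudogenes to be set beside the gene they derive from. For 125 pseudogenes the annotation named a protein-coding parent, 115 parents in all. Pseudogene and parent were both marked in 19 pairs, the pseudogene alone in 27, the parent alone in 18 and neither in 61. Over pairs the wt log2 ratios had Pearson's r = 0.31 and Spearman's rho = 0.29, given as a description since the pairs share libraries and some share a parent. In the 88 pairs more than 50 kb apart or on different chromosomes r was 0.17 and rho 0.15, with both marked in 7. In the 37 nearer pairs both were marked in 12.

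Single pairs went either way. AT4G03063 had a wt ratio of 3.16, and its parent AOP1, a gene of glucosinolate metabolism 2.60 kb away, had -2.81. AT1G75394 had 3.23 and its parent INH3, a phosphatase inhibitor gene on another chromosome, -3.18. AT5G06634 and its parent GIS2, a zinc finger gene of trichome formation, had 3.13 and 3.29. AT2G03291 and its parent AT2G22340, 8492 kb apart, had 3.49 and 2.98. These 4 pairs were chosen after their values were seen.

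Copies of organelle DNA formed a group of their own. In 43 of the loci over 50% of the 37-base words also occurred in an organelle genome, and 41 of them lay on chromosome 2, whose pericentromere holds a large insertion of mitochondrial DNA. Their median wt ratio was -4.51 ± 0.22 (SD, n = 2) and their highest -2.71, none was marked in either genotype, and all 43 were at least 2-fold below input in the edgeR test. The median locus of this group held 125 (wt) and 139 (brm) RPM per kb in the inputs, against 5.72 and 6.90 at loci without such words. In the H3K27me3 libraries it held 4.23 to 5.87 RPM per kb, against 0.76 to 0.87. Over all nuclear reads, those at words shared with an organelle were 4.01% and 4.06% of the inputs and 0.13% to 0.20% of the H3K27me3 libraries. Reads from nuclear copies and from the organelles themselves cannot be told apart at such words.

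The 3 loci with the most input reads all held such words. AT2G07717, a copy of the mitochondrial gene for NADH dehydrogenase subunit 4, held 996.4 and 1031 RPM in the inputs, 48.3 and 35.0 RPM in the wt H3K27me3 libraries, and 45.4 and 28.7 RPM in the brm ones. AT2G07709, a copy of subunit 7, held 667.1 and 765.6 RPM in the inputs and 19.03 to 30.2 RPM in the H3K27me3 libraries. In AT2G07080 only 9.85% of the words were organelle-like. The span chr2:2938186-2938817, part of which is printed above, holds these stretches and the bases between them. It took 4477 of the 5064 wt input reads of the locus and 3863 of the 4357 brm input reads. The H3K27me3 replicates of AT2G07080 also parted, with 44.3 and 18.8 RPM in wt and 44.6 and 15.6 RPM in brm.

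Between genotypes few loci passed the count test, and how many depended on the libraries used. Of 3019 loci with enough H3K27me3 reads to be tested, 1 was higher in brm, against 0.0777% of all 30906 genes tested, and 0 were lower, against 0.0971% (edgeR quasi-likelihood test, adjusted p under 0.05). At an unadjusted p under 0.05, 121 of these 3019 loci were higher and 90 lower. Of all 30906 genes tested, 993 were higher (3.21%) and 1399 lower (4.53%). DESeq2 also called 1 locus higher and 0 lower, but a different one, and gave the first no adjusted p. Higher and lower loci numbered 29 and 32 without wt replicate 1, 9 and 19 without wt replicate 2, 0 and 0 without brm replicate 1, 1 and 1 without brm replicate 2, and 7 and 26 with the input reads of each locus as an offset. Shares of all genes called in these alternative fits are not given, so the counts show unstable calls and are no result about pseudogenes. The remaining 1412 loci, 1062 of them pericentromeric pseudogenes, had too few reads for the main test. The median fitted log2 change was 0.04 over the loci tested and -0.05 over all genes tested.

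The locus called was AT1G43660, an undescribed pericentromeric pseudogene of 285 bp. It held 0 reads in both wt libraries, 54 and 27 reads in the brm libraries, and 18 (wt) and 25 (brm) input reads. In brm it held 5.63 and 3.21 RPM, with a mean at least 12.6-fold higher than the floor of 3 reads in a wt library (edgeR adjusted p = 0.033). Of the 54 reads in brm replicate 1, 53 shared 1 position and strand, and the 27 reads in replicate 2 had 4 positions, 17 of them at 1. With 1 read per position and strand counted it was not among the loci tested. No H3K27me3 region touched it in either genotype.

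DESeq2 called AT4G08090, an undescribed pericentromeric pseudogene of 3198 bp, which was chosen after its values were seen. It held 23.1 and 38.8 RPM in wt and 61.6 and 66.2 RPM in brm, with 26.6 and 21.0 RPM in the inputs, and from 74 to 222 distinct reads in each H3K27me3 library. The genotypes did not overlap, and the log2 change was 1.04 ± 0.25 (SE, edgeR adjusted p = 0.13; DESeq2 adjusted p = 0.033). Regions covered 25.02% of it in wt and 31.3% in brm.

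Ratios to input gave lower medians in brm for pseudogenes. Their mean of medians was -2.61 ± 0.05 in brm and -2.38 ± 0.001 in wt (SD, n = 2 each), a difference of -0.22 in which all brm libraries lay below all wt libraries (exact permutation test of 2 against 2 libraries, p = 0.33, the smallest possible; 0.417 adjusted over 5 comparisons). Transcribed pseudogenes differed by -0.02 (exact permutation test, p = 0.667 before and after adjustment), within the spread of the replicates. Protein-coding genes, which were not among these comparisons, had -2.10 ± 0.03 in wt and -2.27 ± 0.09 in brm (SD, n = 2 each). Lower medians in brm were thus not particular to pseudogenes. Over pseudogenes the brm input was higher than the wt input by a median of 0.26 on the log2 scale. This input difference was 0.14 over transcribed pseudogenes and 0.08 over protein-coding genes. With 1 input per genotype, a difference of the inputs and a difference of H3K27me3 cannot be told apart in these ratios. Summed over pseudogenes, the H3K27me3 libraries held 16533 and 16999 RPM in wt and 17300 and 16655 RPM in brm, which overlap.

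Locus by locus, the brm libraries both lay outside the wt range on the same side at 1526 of the 3634 loci with at least 50 input reads (42.0%), against 43.5% of all 31324 such loci. Of these, 582 were higher and 944 lower in brm (61.9% lower), and over all loci 5405 were higher and 8208 lower (60.3%). The brm input was the higher of the inputs over the pseudogene loci by a median of 0.24 on the log2 scale. The count test, which uses no input, gave 121 higher and 90 lower of 3019 loci at an unadjusted p under 0.05 (edgeR quasi-likelihood test). Over all 30906 genes tested it gave 993 higher (3.21%) and 1399 lower (4.53%). What part the inputs have in the lower ratios was not tested. Among the loci with at least 50 input reads and no overlap between genotypes, the largest increases of the ratio were at AT3G30190, AT3G32375, a pseudogene of a casein lytic proteinase, AT3G42798 and AT4G08033, and the largest decreases at AT3G30240, AT2G12083, AT2G12520 and AT1G44840. All 8 had ratios below 0 in at least 3 of 4 libraries and at most 16 distinct reads in any H3K27me3 library, and none was called, with AT4G08033 and AT3G30240 under the filter of the test. AT3G42798, for example, held 9 and 3 reads in wt and 57 and 18 reads in brm. AT2G12083 held 33 and 11 reads in wt and 2 and 0 reads in brm.

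**Figure D5:**
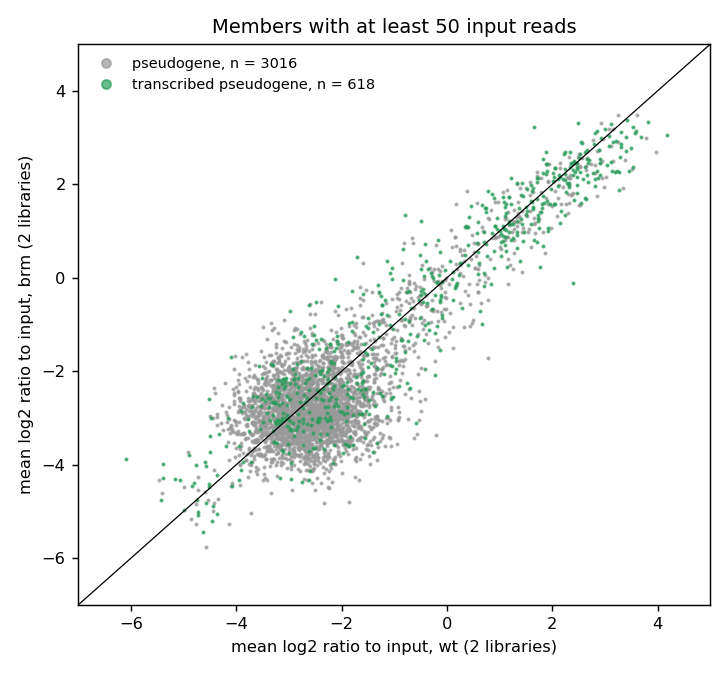
Mean log2 ratio to input in brm (y axis) against wt (x axis) for the 3634 loci with at least 50 input reads, each point 1 locus, pseudogenes in grey and transcribed pseudogenes in green. Points above input lie around the line of equal values, and some of those with the highest wt ratios lie below that line. The broad cloud below input holds loci with few H3K27me3 reads.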

How the data were processed

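H3K27me3 ChIP-seq and input reads were deposited as 6 BED files, 1 line per 37-base read, so that reads per locus are counts; the score column that the authors deposited is 0 in every line and was not used. Per the labels and the study's methods, the authors aligned the reads to TAIR10 with Bowtie (0.12.7) and kept perfectly and uniquely mapped reads, and called regions with SICER (1.1) and changes with ChIPDiff. All reads lay at words unique in the 5 nuclear chromosomes of TAIR10.1, which shows that the coordinates match.

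Each read was moved 75 bp towards its fragment centre, counted in locus spans and scaled to the total nuclear reads. Regions were rebuilt with 1 read per position and strand, 200 bp windows, a gap of 600 bp and a false discovery rate of 0.01 against the input of the genotype. ChIPDiff was replaced by edgeR (4.0.16) quasi-likelihood tests over all nuclear loci, with total reads as offset and Benjamini-Hochberg adjustment, and DESeq2 (1.42.0) served as an alternative. Both were run in R 4.3.3, and the rest in Python 3.11.15. The scripts were tested on simulated data. Genotypes were compared over 2 libraries each, which the study calls biological replicates, and class medians by exact permutation over libraries.

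The loci, lists and rules were chosen with earlier results of these data known. Named loci were those called between genotypes, the 5 highest wt ratios of each biotype and of the pericentromeres, the 3 with the most input reads, the 4 largest increases and 4 largest decreases of the ratio among loci with at least 50 input reads and no overlap between genotypes, and TA3. Others named were chosen after their values were seen. Alternatives covered scaling, test, filters, duplicate reads, read shift, replicate block, input offset, thresholds and each H3K27me3 library left out, but neither input.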

Additional observations from a re-analysis of the deposited data

How the results depend on the processing

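The class differences kept their direction under every alternative tried: transcribed pseudogenes minus pseudogenes ranged from 1.49 to 1.82 (1.51 to 1.60 with 1 library left out), pericentromere minus arm from -2.46 (ratio of summed reads) to -0.77 (stricter pericentromere), and the biotype difference within arms from 1.14 (every word unique) to 2.02 (no other gene overlapped). The fall of the pseudogene median in brm ranged from -0.26 to -0.18. The brm difference of transcribed pseudogenes, -0.02, changed sign without a read shift (0.0095), with loci overlapping no other gene (0.012), with every word unique (0.042, an alternative chosen after seeing the data) and with 1 library left out (-0.077 to 0.036).

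Counts of marked loci stayed within 1.5 times of the reported ones under the other filters and overlap thresholds (wt 320 to 445, brm 341 to 470, with single-replicate regions 406 to 412 and 425 to 427), and were 218 in wt and 230 in brm among loci with every word unique, which are fewer loci. Enriched and depleted loci numbered 652 and 439 with TMM, and 334 to 401 and 2821 to 3193 otherwise (345 to 366 and 2821 to 3151 with 1 library left out).

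Calls between genotypes were unstable, and the counts of the alternative fits have no share of all genes beside them. Higher and lower loci numbered 4 and 7 without a low-count filter, 3 and 6 with 1 read per position and strand, and 7 and 26 with an input offset. They numbered 3 and 3 with the replicate number as a block, although no label pairs these numbers (correlation of replicate deviations 0.02). Leaving out 1 library gave 0 to 29 higher and 0 to 32 lower, with 29 and 32 without wt replicate 1, 9 and 19 without wt replicate 2, 0 and 0 without brm replicate 1 and 1 and 1 without brm replicate 2. AT1G43660 lost its call without brm replicate 1 (adjusted p = 0.89; 0.00047 to 0.036 in the other edgeR fits that tested it). AT3G21010 passed in 6 of the alternatives, with log2 changes of -1.42 to -0.59 over all of them, and AT4G08090 in 6, with 0.72 to 1.47. The causes were not tested. No replicate block could be fitted for the input comparison, which has 1 input per genotype. Low reads per pericentromeric locus and 2 libraries per genotype limit what these data can show.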

Other observations

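Marked loci were spread unevenly over chromosomes. Chromosome 1 held 797 of the loci and 124 of those marked in wt, chromosome 3 held 1009 and 87, chromosome 2 held 976 and 66, chromosome 5 held 878 and 56, and chromosome 4 held 771 and 46. Chromosome 1 had the fewest pericentromeric members, 418, and chromosome 3 the most, 768.

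Short motifs known from plant Polycomb target sequences were searched on both strands of the middle 300 bases of every locus of at least that length: the telobox AAACCCTA (reverse complement TAGGGTTT) and the GA repeat GAGAGA (reverse complement TCTCTC). The telobox was present in 9 of 359 marked (2.51%) and 86 of 3969 unmarked pseudogene loci (2.17%), and in 2.73% of all 33827 loci searched. Among protein-coding genes it was present in 4.84% of those marked and 2.12% of the others. The GA repeat was present in 100 marked (27.9%) and 789 unmarked loci (19.9%), and in 24.8% of all loci searched, while protein-coding genes had 24.2% and 25.03%. By biotype, the telobox was present in 3.35% of transcribed pseudogenes and 1.94% of pseudogenes, and the GA repeat in 25.9% and 19.4%. A match is a run of letters, not a binding site, and these shares were not tested.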
